A study of Mus musculus with 9 samples.

Results

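The genes described here are 35 genes of macrophages and monocytes, listed by name, out of 18193 mouse genes that the arrays measured. Each was represented by its brightest probe set, the group of short oligonucleotides that reports 1 transcript, among those annotated to that gene alone. All 35 were measured, and all 35 passed the filter on dim genes, the 40th percentile of each array on at least 3 arrays, that left 13409 genes for testing. They were compared in primary tumours of 3 mouse mammary carcinoma lines. Per the labels, 1000000 viable 4T1/CMVLUC, 66cl4/CMVLUC or 67NR/CMVLUC cells were injected into the mammary gland of female BALB/c mice aged 7-9 weeks, and the tumours were taken on day 15. Tumour tissue was cut out by laser capture microdissection, and total RNA of 3 mice per line gave 3 arrays each for 4T1, 66cl4 and 67NR, 9 in all. No tumour-free tissue and no sorted cells were among the samples, and each tumour type comes from 1 cell line. 4T1 and 66cl4 are metastatic in mice, while 67NR grows at the site of injection without spreading, and 67NR is the line the others were set against.

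Macrophages in a tumour derive largely from blood monocytes, which enter tissue by way of chemokine receptors and depend on the growth factor CSF1 and its receptor for survival. They sense antibody-coated and complement-coated material through Fc receptors and complement receptors. They bind microbial and cell debris through scavenger and lectin receptors, and destroy it with lysozyme, lysosomal proteases and reactive oxygen. The transcription factor PU.1, encoded by Spi1, controls many of these genes. Most of the 35 genes are shared in part with neutrophils, dendritic cells, natural killer cells or mast cells. They therefore do not stand for 1 cell type. The arrays measured RNA of microdissected tumour tissue. In it, fewer cells of a type, less RNA per cell and signal of the carcinoma cells themselves cannot be told apart.

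Signal was above background on all 9 arrays for 34 of the genes, background being the brightest bacterial control probe set of each array, at a log2 signal of 4.83 to 5.08. Marco, a scavenger receptor of certain resident macrophages, was the exception, with means of 5.07 ± 0.05 in 4T1, 4.95 ± 0.08 in 66cl4 and 5.01 ± 0.01 in 67NR (SD, n = 3). It was above background on 3, 2 and 2 arrays of these lines, and its differences carry no information about a level. The arrays had close medians, 5.51 to 5.58. The number in the array's file name and the signal of the spiked hybridization controls moved with the lines. The file numbers of the 3 67NR arrays were above those of all 4T1 and 66cl4 arrays, and what the number stands for is not given in the labels. The hybridization controls averaged 10.46 ± 0.22 in 4T1, 10.86 ± 0.23 in 66cl4 and 11.16 ± 0.30 in 67NR arrays (SD, n = 3).

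In 4T1 tumours, 25 of the 35 genes were lower than in 67NR and 0 were higher (limma, adjusted p under 0.05 over all genes tested). Of all genes tested, 20.5% were called lower in this comparison and 19.4% higher. The members had a median log2 difference of -0.80, against -0.03 over all genes. In 66cl4 tumours, 6 of the 35 were higher than in 67NR, where 20% of all genes were, and 7 were lower, where 16% of all genes were. The median of the members was -0.03 and that of all genes 0.01. Between the metastatic lines, 21 genes were lower in 4T1 than in 66cl4 tumours, against 23.4% of all genes, and 3 were higher, against 17.9% of all genes. The median difference there was -0.78 for the members and -0.03 for all genes. The comparisons share arrays, so they are not independent of each other. Counts of the smaller groups and lists below are to be read against the same shares over all genes, and some lie near them.

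**Figure D1:**
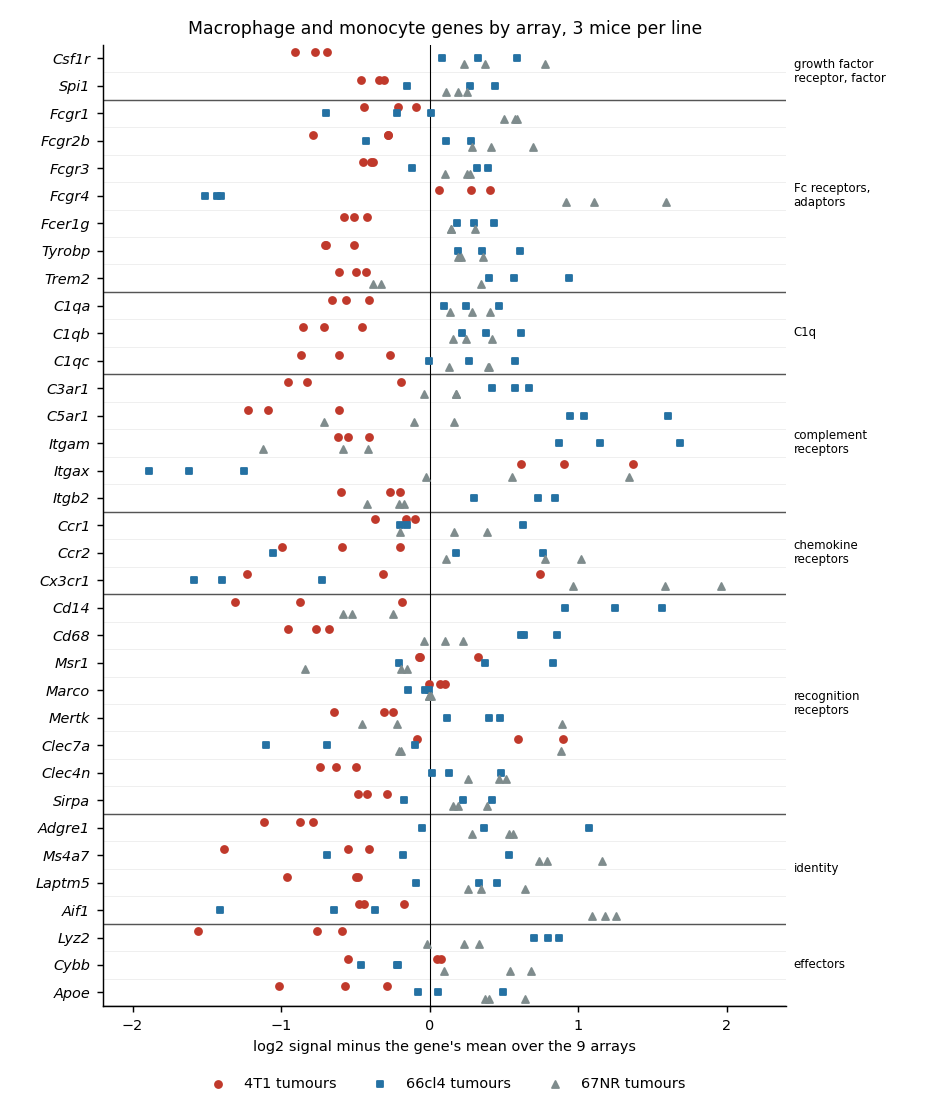
Log2 signal of each of the 35 genes on each of the 9 arrays, as the difference from the gene's mean over all arrays (x axis), with genes down the page grouped by role. Red circles are 4T1, blue squares 66cl4 and grey triangles 67NR tumours, 1 point per mouse. The 4T1 points lie to the left for most genes, while 66cl4 lies far to the left for Fcgr4, Itgax and Cx3cr1 and far to the right for Itgam, C5ar1 and Cd14.

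The genes did not form 1 block. A difference among the 3 lines passed the moderated F-test for 29 of 35, against 56.6% of all genes. The most frequent pattern, in 15 genes, was a lower signal in 4T1 tumours than in both other lines with no difference called between 66cl4 and 67NR. Another 5 genes were lower in both metastatic lines than in 67NR with no difference called between 4T1 and 66cl4. In 4 genes, Trem2, Itgam, Itgb2 and Cd14, the signal was higher in 66cl4 than in either other line, with no difference called between 4T1 and 67NR. C5ar1 and Cd68 were called in all 3 comparisons, with the highest signal in 66cl4 and the lowest in 4T1, and Fcgr4 was called in all 3 with the highest in 67NR and the lowest in 66cl4. For 4 genes, Ccr1, Msr1, Marco and Mertk, no pairwise difference passed the test.

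The decrease in 4T1 against 67NR tumours depended on how array-level signals were treated. With the file number as a covariate, 5 genes were called lower, Csf1r, Fcgr4, Fcer1g, Cd68 and Clec4n. With the hybridization control signal as a covariate, 6 were, Csf1r, Fcgr4, Fcer1g, Tyrobp, C1qa and C1qb. The calls of 4T1 against 67NR given below are from the fit without a covariate. Only those of Csf1r, Fcgr4 and Fcer1g passed with both covariates. The direction was below 0 for 29 of 35 genes in either fit and for 30 without a covariate. The median difference was -0.52 with the file number and -0.68 with the hybridization controls, against -0.80 without either, and the median SE grew to 0.30 and 0.33, against 0.20. 67NR file numbers overlapped with those of neither 4T1 nor 66cl4, so line and file number cannot be told apart in comparisons with 67NR. The hybridization controls of 4T1 (10.30 to 10.72) and 67NR (10.87 to 11.47) did not overlap either. Of the 13 calls between 66cl4 and 67NR, 10 held with both covariates, those of Fcgr1, Ms4a7 and Cybb being lost. Of the 24 between 4T1 and 66cl4, 19 held, those of Spi1, Fcgr3, Clec7a, Sirpa and Apoe being lost with 1 or both.

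**Figure D2:**
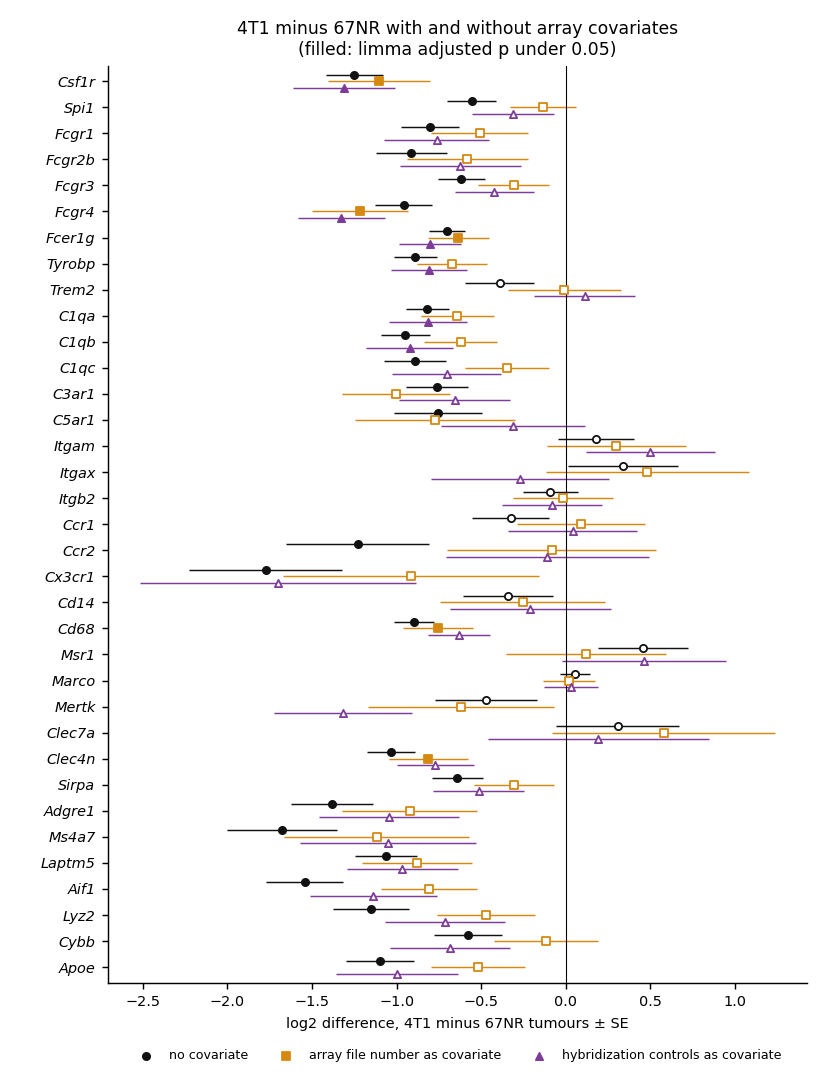
Log2 difference of 4T1 minus 67NR tumours (x axis, ± SE, 3 mice per line) for the 35 genes, with no covariate (circles), with the array file number (squares) and with the hybridization control signal (triangles) in the fit. Filled symbols passed the limma test. Most symbols stay left of 0 while the error bars widen, and 3 genes, Csf1r, Fcgr4 and Fcer1g, are filled under all settings tried.

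Csf1r encodes the receptor for the growth factors CSF1 and IL-34, on which most macrophages depend. Its log2 signals were 11.50, 11.64 and 11.72 in 4T1 tumours, 12.49, 12.74 and 12.997 in 66cl4 tumours, and 13.18, 12.79 and 12.64 in 67NR. All 4T1 values lay below all others, and the values of 66cl4 and 67NR overlapped. Csf1r was 2.38-fold lower in 4T1 than in 67NR (log2 difference -1.25 ± 0.17, SE, adjusted p = 0.000300) and 2.18-fold lower than in 66cl4 tumours (-1.12 ± 0.17, adjusted p = 0.000553). The difference of 66cl4 from 67NR was -0.13 ± 0.17 (adjusted p = 0.597). Spi1, which encodes PU.1, had signals of 8.98, 9.02 and 8.87 in 4T1, 9.17, 9.76 and 9.60 in 66cl4, and 9.44, 9.58 and 9.52 in 67NR. It was lower in 4T1 by the same amount, -0.56 ± 0.15, against each of the other lines (adjusted p = 0.0125 against 67NR and 0.0124 against 66cl4). With the file number in the fit, the difference from 67NR was -0.14 and did not pass (adjusted p = 0.647).

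Ligands and related receptors moved in both directions. Of 5 growth factor and receptor genes, 1 was higher and 2 were lower in 4T1 than in 67NR, against 19.4% and 20.5% of all genes. In 66cl4 against 67NR 1 was higher and 2 lower, against 20% and 16%. In 4T1 against 66cl4 3 were higher and 2 lower, against 17.9% and 23.4%. Csf1 itself was higher in 66cl4 than in 67NR (1.40 ± 0.15, adjusted p = 0.000105), and its difference between 4T1 and 67NR was -0.04 ± 0.15 (adjusted p = 0.846). Csf2, encoding another myeloid growth factor, was higher in 4T1 than in 67NR (1.12 ± 0.21, adjusted p = 0.0019). Its 67NR signals, 4.99, 4.97 and 5.27, lay just above background, so this size is uncertain. In 66cl4 Csf2 was above background on 1 of 3 arrays. The receptor chain gene Csf2rb was lower in 66cl4 than in 67NR (-1.19 ± 0.15, adjusted p = 0.000273). Of 10 further myeloid transcription factors, 1 was higher and 4 were lower in 4T1 than in 67NR, against 19.4% and 20.5% of all genes. In 66cl4 against 67NR 1 was higher and 3 were lower, against 20% and 16%. Between 4T1 and 66cl4, 3 were higher and 3 lower in 4T1, against 17.9% and 23.4%. Klf4 and Maf fell in 4T1 by 2.24 ± 0.24 and 1.63 ± 0.22 against 67NR (adjusted p = 6.89e-05 and 0.000293). Irf8, a factor of monocytes and dendritic cells, was lower in 66cl4 than in 67NR (-0.70 ± 0.15, adjusted p = 0.00466), and its difference in 4T1 was 0.36 ± 0.15 (adjusted p = 0.0817).

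The Fc receptor group holds receptors for IgG, the debris receptor Trem2 and the membrane adaptors that carry their signals. Of its 7 genes, 6 were lower in 4T1 than in 67NR, against 20.5% of all genes. Against 67NR, 66cl4 had 1 of them higher and 2 lower, against 20% and 16% of all genes. In 4T1 against 66cl4, 1 was higher and 4 were lower, against 17.9% and 23.4%. The adaptor Fcer1g, the chain shared by the activating Fc receptors, had signals of 10.58, 10.42 and 10.50 in 4T1, 11.19, 11.43 and 11.30 in 66cl4, and 11.31, 11.15 and 11.15 in 67NR. All 4T1 arrays lay below all others. The fall against 67NR was -0.70 ± 0.10 (adjusted p = 0.000558) and against 66cl4 -0.81 ± 0.10 (adjusted p = 0.000232). Tyrobp, the adaptor of Trem2 also known as DAP12, had the same order, with means of 10.98 ± 0.11 in 4T1, 12.003 ± 0.21 in 66cl4 and 11.87 ± 0.09 in 67NR (SD, n = 3). The difference of 4T1 from 67NR was -0.89 ± 0.13 (adjusted p = 0.000413).

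The receptor Fcgr4, which binds IgG of certain subclasses and activates through Fcer1g, separated all 3 lines. Its signals were 9.46, 9.67 and 9.80 in 4T1, 7.99, 7.96 and 7.88 in 66cl4, and 10.98, 10.50 and 10.31 in 67NR. No value of 1 line overlapped with another line. Fcgr4 was 6.30-fold lower in 66cl4 than in 67NR (-2.65 ± 0.17, adjusted p = 4.23e-06) and 1.94-fold lower in 4T1 than in 67NR (-0.96 ± 0.17, adjusted p = 0.00145). In 4T1 it was 3.24-fold higher than in 66cl4 (1.70 ± 0.17, adjusted p = 4.14e-05). Its neighbour on chromosome 1, Fcgr3, is another activating receptor gene whose product uses the same adaptor, with 0 protein-coding genes between them. Fcgr3 had signals of 10.55, 10.50 and 10.56 in 4T1, 10.82, 11.26 and 11.34 in 66cl4, and 11.19, 11.04 and 11.21 in 67NR. It was lower in 4T1 than in 67NR (-0.62 ± 0.14, adjusted p = 0.00537) and differed by -0.01 ± 0.14 between 66cl4 and 67NR (adjusted p = 0.968). The inhibitory receptor Fcgr2b, on the other side of Fcgr4 with 0 protein-coding genes between, was lower in 4T1 than in 67NR (-0.91 ± 0.21, adjusted p = 0.00639). In 66cl4 its difference was -0.48 ± 0.21 (adjusted p = 0.106).

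The promoters of Fcgr4 and Fcgr3 are shown because these neighbouring genes differed so unequally in 66cl4 tumours. They run from 250 bases before to 50 bases after the gene start in RefSeq, assembly GRCm38.p6, at chr1:171018676-171018975 on the plus strand for Fcgr4 and chr1:171059354-171059653 on the minus strand for Fcgr3. Capitals mark GAGGAA, the core of the PU.1 motif, or its reverse complement TTCCTC, and each window holds 1 match, on the reverse strand.
Fcgr4: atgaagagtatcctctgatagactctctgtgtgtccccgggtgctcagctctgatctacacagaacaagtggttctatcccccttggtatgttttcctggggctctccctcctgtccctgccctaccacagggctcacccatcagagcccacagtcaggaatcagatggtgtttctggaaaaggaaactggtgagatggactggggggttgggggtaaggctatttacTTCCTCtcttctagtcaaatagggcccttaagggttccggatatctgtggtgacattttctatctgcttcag
Fcgr3: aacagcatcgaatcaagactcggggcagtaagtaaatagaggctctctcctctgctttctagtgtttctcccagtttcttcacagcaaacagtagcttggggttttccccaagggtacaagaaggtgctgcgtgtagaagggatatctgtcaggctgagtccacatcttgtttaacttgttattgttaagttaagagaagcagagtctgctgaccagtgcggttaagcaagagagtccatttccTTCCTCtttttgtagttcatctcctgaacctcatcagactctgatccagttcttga

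Fcgr1, the high-affinity IgG receptor, was lower in both metastatic lines than in 67NR, by -0.80 ± 0.17 in 4T1 (adjusted p = 0.00432) and -0.86 ± 0.17 in 66cl4 (adjusted p = 0.00359). Its 67NR values, 9.83 to 9.92, lay above all others. The 4T1 call was lost with the file number (adjusted p = 0.236) and with the hybridization controls (0.133), and the 66cl4 call with the file number (-0.67, adjusted p = 0.0559). The other Fcgr1 probe set passed in neither comparison, at -0.41 in 4T1 (adjusted p = 0.0561) and -0.33 in 66cl4 (adjusted p = 0.131, all probe sets tested). Trem2 was higher in 66cl4 than in 67NR (0.76 ± 0.20, adjusted p = 0.0159), and its signals were 7.81, 7.87 and 7.69 in 4T1, 8.70, 9.24 and 8.87 in 66cl4, and 7.92, 7.98 and 8.65 in 67NR. All 66cl4 values exceeded all others, but without 66cl4 replicate 2 the adjusted p was 0.0611, and without 67NR replicate 1 or 2 it was 0.0623 or 0.0637. Another Trem2 probe set differed by -0.13 between 66cl4 and 67NR (adjusted p = 0.480, all probe sets tested). Downstream of these receptors, 9 of 12 listed kinases and adaptors were tested. In 4T1 against 67NR, 1 was higher and 5 were lower, against 19.4% and 20.5% of all genes. In 66cl4 against 67NR 2 were lower, against 16%. In 4T1 against 66cl4 1 was higher and 2 were lower, against 17.9% and 23.4%. The adaptor Lcp2 was lower in both metastatic lines than in 67NR (-1.18 ± 0.13 in 4T1, adjusted p = 7.55e-05, and -0.9996 ± 0.13 in 66cl4, adjusted p = 0.000288). Plcg2 was higher in 4T1 than in 67NR (1.27 ± 0.20, adjusted p = 0.000691), while the kinase gene Btk was lower (-0.51 ± 0.13, adjusted p = 0.00974).

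The complement group of C1qa, C1qb and C1qc encodes the chains of C1q, the recognition molecule of the classical pathway, which macrophages secrete. All 3 were lower in 4T1 than in both other lines, against 20.5% of all genes for 67NR and 23.4% for 66cl4. None was called between 66cl4 and 67NR, where 20% of all genes were higher and 16% lower. With the file number in the fit, no chain passed in 4T1 against 67NR (adjusted p = 0.0695 for C1qa, 0.0786 for C1qb and 0.348 for C1qc). With the hybridization controls C1qc did not pass there (-0.70, adjusted p = 0.1815). C1qa had signals of 12.58, 12.33 and 12.43 in 4T1, 13.09, 13.24 and 13.46 in 66cl4, and 13.39, 13.12 and 13.27 in 67NR. For each of the 3 chains all 4T1 arrays lay below all other arrays. Against 67NR the differences in 4T1 were -0.82 ± 0.13 for C1qa (adjusted p = 0.000739), -0.95 ± 0.14 for C1qb (adjusted p = 0.000593) and -0.89 ± 0.19 for C1qc (adjusted p = 0.00377). Those of 66cl4 from 67NR were -0.0038 ± 0.13 for C1qa (adjusted p = 0.986), 0.13 ± 0.14 for C1qb and -0.03 ± 0.19 for C1qc (adjusted p = 0.515 and 0.911). The genes lie side by side on chromosome 4, with 0 protein-coding genes between C1qa and C1qc or between C1qc and C1qb.

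Other complement genes were called in both directions. Of 12 listed, 7 were tested. In 4T1 against 67NR 3 were higher and 1 lower, against 19.4% and 20.5% of all genes. In 66cl4 against 67NR 1 was higher and 2 lower, against 20% and 16%. In 4T1 against 66cl4 3 were higher and 1 lower, against 17.9% and 23.4%. Cfb, a protease component of the alternative pathway, was lower in 66cl4 than in 67NR (-2.00 ± 0.15, adjusted p = 1.34e-05) and higher in 4T1 than in 67NR (0.43 ± 0.15, adjusted p = 0.0498). Serping1, the inhibitor of C1, was lower in 66cl4 than in 67NR (-2.19 ± 0.39, adjusted p = 0.00179). Cfp, encoding properdin, had a difference of -1.06 ± 0.14 in 4T1 (adjusted p = 0.000295) and 0.99 ± 0.14 in 66cl4 (adjusted p = 0.000544) against 67NR.

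The complement receptor group holds the anaphylatoxin receptors C3ar1 and C5ar1 and the integrin chains that bind complement-coated particles. In 66cl4 against 67NR, 3 of the 5 were higher and 1 was lower, against 20% and 16% of all genes. In 4T1 against 67NR 2 were lower, against 20.5%. In 4T1 against 66cl4, 4 were lower and 1 was higher, against 23.4% and 17.9%. Itgam encodes the alpha-M chain, which with Itgb2 forms complement receptor CR3 and is also abundant on neutrophils. Its signals were 7.58, 7.79 and 7.65 in 4T1, 9.35, 9.88 and 9.07 in 66cl4, and 7.08, 7.62 and 7.78 in 67NR. Each 66cl4 array was above every other array, and 4T1 and 67NR overlapped. Itgam was 3.84-fold higher in 66cl4 than in 67NR (1.94 ± 0.22, adjusted p = 0.000154), and 4T1 differed from 67NR by 0.18 ± 0.22 (adjusted p = 0.572).

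Itgax encodes the alpha-X chain, which pairs with the same Itgb2 to form CR4 and also marks dendritic cells. Its signals were 8.76, 9.23 and 8.47 in 4T1, 6.23, 6.604 and 5.97 in 66cl4, and 9.20, 8.41 and 7.84 in 67NR. Here each 66cl4 array lay below every other array. Itgax was 4.64-fold lower in 66cl4 than in 67NR (-2.21 ± 0.33, adjusted p = 0.000639) and 5.87-fold higher in 4T1 than in 66cl4 (2.55 ± 0.33, adjusted p = 0.000214). The shared beta chain Itgb2 was higher in 66cl4 than in 67NR (0.89 ± 0.16, adjusted p = 0.00223), with means of 10.76 ± 0.21 in 4T1, 11.74 ± 0.29 in 66cl4 and 10.85 ± 0.13 in 67NR (SD, n = 3). Itgam and Itgax are neighbours on chromosome 7 with 0 protein-coding genes between, and were called in opposite directions in 66cl4 against 67NR. All 3 calls held under each alternative tried.

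The promoters of both alpha chains are shown for this contrast, again from RefSeq, GRCm38.p6, at chr7:128062390-128062689 for Itgam and chr7:128129300-128129599 for Itgax, both on the plus strand. Capitals mark GAGGAA or its reverse complement. The Itgam window holds 3 matches and the Itgax window 0, and no match says only that these letters are not in this window.
Itgam: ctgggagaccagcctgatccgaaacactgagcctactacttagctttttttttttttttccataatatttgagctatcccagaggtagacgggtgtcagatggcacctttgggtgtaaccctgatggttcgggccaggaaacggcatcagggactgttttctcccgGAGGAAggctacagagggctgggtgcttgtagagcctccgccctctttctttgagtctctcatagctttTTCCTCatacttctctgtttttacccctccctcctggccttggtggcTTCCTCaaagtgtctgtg
Itgax: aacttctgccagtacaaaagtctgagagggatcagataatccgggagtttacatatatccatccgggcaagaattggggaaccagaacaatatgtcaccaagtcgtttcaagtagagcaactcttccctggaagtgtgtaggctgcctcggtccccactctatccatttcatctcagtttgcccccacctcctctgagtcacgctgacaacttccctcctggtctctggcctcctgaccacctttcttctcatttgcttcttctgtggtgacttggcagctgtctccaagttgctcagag

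Across the 35 genes, 25 had a promoter in the RefSeq table, and 16 of these, 64.0%, held GAGGAA on either strand. Over all 27025 genes with a window of the same 300 bases, 28.3% did. The match is a description of sequence, and its relation to the signals was not tested.

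C5ar1, the receptor for the anaphylatoxin C5a, had signals of 6.68, 6.82 and 7.30 in 4T1, 8.85, 9.51 and 8.95 in 66cl4, and 7.201, 7.80 and 8.07 in 67NR. The 66cl4 values stood above all others, and 4T1 overlapped with 67NR. C5ar1 was 2.66-fold higher in 66cl4 than in 67NR (1.41 ± 0.26, adjusted p = 0.00215). The lower signal in 4T1 than in 67NR, -0.76 ± 0.26, was near the threshold (adjusted p = 0.0409). It no longer passed without 4T1 replicate 1 or 2 (adjusted p = 0.118 and 0.107), without 67NR replicate 2 or 3 (0.115 and 0.147) or without 66cl4 replicate 3 (0.0514). C3ar1, the receptor for C3a, had signals of 8.5985, 8.73 and 9.36 in 4T1, 9.97, 10.22 and 10.12 in 66cl4, and 9.51, 9.73 and 9.73 in 67NR. The lines did not overlap. Its decrease in 4T1 passed against both 67NR (-0.76 ± 0.18, adjusted p = 0.00841) and 66cl4 (-1.21 ± 0.18, adjusted p = 0.000619). The call against 67NR was lost with the file number (-1.01, adjusted p = 0.0587) and with the hybridization controls (-0.66, adjusted p = 0.218). The other C3ar1 probe sets did not pass against 67NR (adjusted p = 0.0530 and 0.0578, all probe sets tested). The difference of 66cl4 from 67NR was 0.45 ± 0.18 (adjusted p = 0.0861). Without 4T1 replicate 3 its adjusted p was 0.0117, but the difference stayed at 0.45. Only the SE, which the 3 lines share, fell to 0.11.

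**Figure D3:**
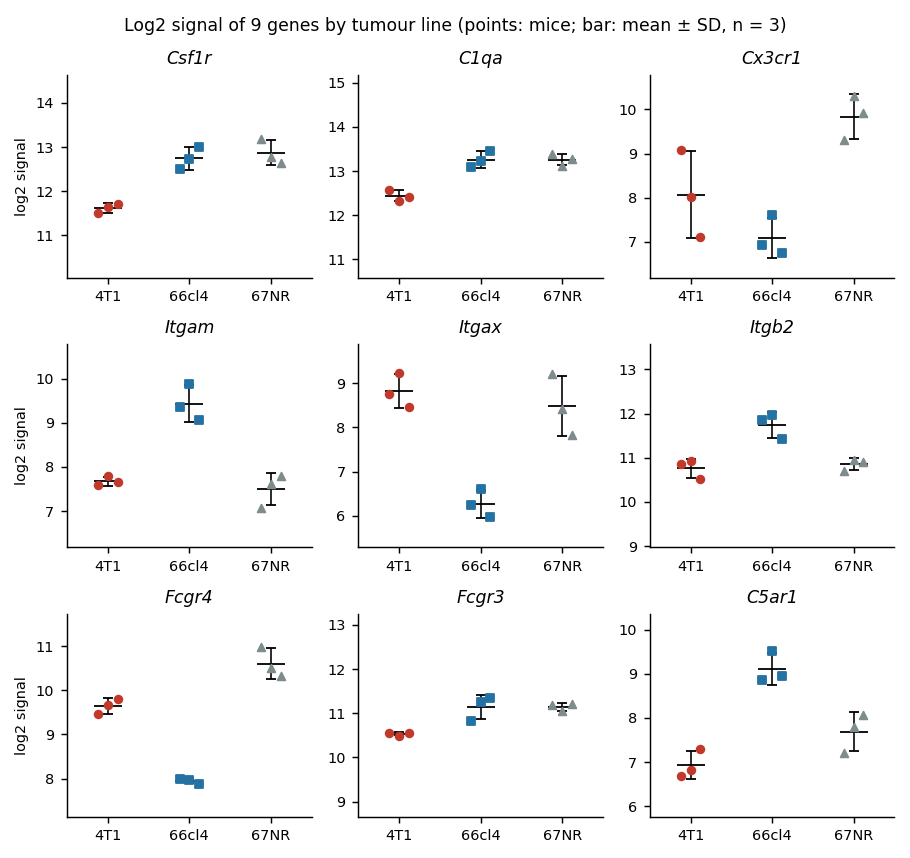
Log2 signal (y axis) in 4T1, 66cl4 and 67NR tumours for 9 of the genes, 1 point per mouse, with the mean and SD (n = 3) as bars. Each panel has its own range. Csf1r, C1qa and Fcgr3 are low in 4T1, Itgam, Itgb2 and C5ar1 are high in 66cl4, Itgax and Fcgr4 are low in 66cl4, and Cx3cr1 is high in 67NR.

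The chemokine receptors Ccr1, Ccr2 and Cx3cr1 guide monocytes from blood into tissue. Of the 3, 2 were lower in 4T1 and 1 in 66cl4 than in 67NR, against 20.5% and 16% of all genes. Between 4T1 and 66cl4, 0 were called (limma, with 0 at an unadjusted p under 0.05). Of all genes, 17.9% were higher and 23.4% lower there. Cx3cr1, the receptor for fractalkine and typical of patrolling monocytes and some tissue macrophages, had signals of 9.07, 8.02 and 7.10 in 4T1, 6.93, 7.61 and 6.75 in 66cl4, and 9.30, 10.29 and 9.92 in 67NR. All 67NR arrays lay above all others, and 4T1 overlapped with 66cl4. It was 6.69-fold lower in 66cl4 than in 67NR (-2.74 ± 0.45, adjusted p = 0.0012) and 3.42-fold lower in 4T1 (-1.77 ± 0.45, adjusted p = 0.011). Between 4T1 and 66cl4 it differed by 0.97 ± 0.45 (adjusted p = 0.117), and by 1.45 without 4T1 replicate 3 (adjusted p = 0.0186). With the file number in the fit, the difference of 4T1 from 67NR was -0.92 ± 0.76 and did not pass (adjusted p = 0.415).

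Ccr2, through which inflammatory monocytes follow CCL2 into tissue, had signals of 8.14, 8.94 and 8.54 in 4T1, 8.08, 9.90 and 9.31 in 66cl4, and 9.24, 10.15 and 9.91 in 67NR. The 66cl4 values overlapped those of both other lines. Ccr2 was lower in 4T1 than in 67NR (-1.23 ± 0.42, adjusted p = 0.0423), but not without 4T1 replicate 1 or 3 (adjusted p = 0.121 and 0.0849), 67NR replicate 2 or 3 (0.138 and 0.113) or 66cl4 replicate 3 (0.0538). With the file number in the fit the difference was -0.08 and with the hybridization controls -0.11. Without 66cl4 replicate 1, Ccr2 was called lower in 4T1 than in 66cl4 (-1.07, adjusted p = 0.0299). Ccr1, a receptor for several CC chemokines, overlapped in all lines, and its difference of 4T1 from 67NR was -0.33 ± 0.23 (adjusted p = 0.293).

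Of 10 genes of chemokine ligands, 1 was higher and 3 were lower in 4T1 than in 67NR, against 19.4% and 20.5% of all genes. In 66cl4 against 67NR 2 were higher and 4 lower, against 20% and 16%. In 4T1 against 66cl4 2 were higher and 5 lower, against 17.9% and 23.4%. Ccl2, the ligand of Ccr2, had signals of 7.4997, 7.39 and 7.65 in 4T1, 9.59, 10.86 and 9.76 in 66cl4, and 10.48, 11.78 and 11.92 in 67NR. It was lower in 4T1 than in 67NR (-3.88 ± 0.40, adjusted p = 5.77e-05) and in 66cl4 than in 67NR (-1.33 ± 0.40, adjusted p = 0.0275). Cx3cl1, the ligand of Cx3cr1, was higher in 4T1 than in 67NR (0.84 ± 0.18, adjusted p = 0.00423) and lower in 66cl4 (-1.77 ± 0.18, adjusted p = 6.78e-05). Ccl6 was higher in 66cl4 than in 67NR (2.10 ± 0.27, adjusted p = 0.000267).

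The recognition receptors bind microbial products, modified lipids, dying cells or the self signal CD47. Of 8 genes, 3 were lower in 4T1 than in 67NR, against 20.5% of all genes. In 66cl4 against 67NR 2 were higher, near the 20% of all genes. In 4T1 against 66cl4 1 was higher and 4 were lower, against 17.9% and 23.4% of all genes. Cd14, the co-receptor for lipopolysaccharide, had signals of 8.51, 9.63 and 8.95 in 4T1, 11.07, 11.39 and 10.73 in 66cl4, and 9.57, 9.24 and 9.29 in 67NR. The 66cl4 arrays lay above every other array. Cd14 was 3.23-fold higher in 66cl4 than in 67NR (1.69 ± 0.27, adjusted p = 0.000898). In 4T1 it differed from 67NR by -0.34 ± 0.27 (adjusted p = 0.349), and without 4T1 replicate 2 by -0.64 (adjusted p = 0.0451).

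Cd68, a glycoprotein of macrophage lysosomes, had signals of 9.24, 9.51 and 9.43 in 4T1, 10.80, 10.83 and 11.05 in 66cl4, and 10.30, 10.15 and 10.42 in 67NR. The 3 lines did not overlap. It was lower in 4T1 (-0.90 ± 0.12, adjusted p = 0.000295) and higher in 66cl4 (0.61 ± 0.12, adjusted p = 0.00341) than in 67NR. Clec4n, the lectin receptor dectin-2, and Sirpa, the receptor for CD47, were lower in 4T1 than in 67NR by -1.03 ± 0.14 (adjusted p = 0.000312) and -0.64 ± 0.15 (adjusted p = 0.00741). Both were lower in 4T1 than in 66cl4 as well, but for Sirpa (-0.55 ± 0.15, adjusted p = 0.0152) the adjusted p was 0.0568 without 66cl4 replicate 2 and 0.0502 without 66cl4 replicate 3. Clec7a, the lectin receptor dectin-1, went the other way, with signals of 9.68, 10.66 and 10.36 in 4T1, 8.66, 9.66 and 9.07 in 66cl4, and 10.65, 9.57 and 9.55 in 67NR. Its higher signal in 4T1 than in 66cl4 (1.10 ± 0.36, adjusted p = 0.0348) did not pass without 4T1 replicate 2 or 3 (adjusted p = 0.114 and 0.0886), without 66cl4 replicate 1 or 3 (0.121 and 0.0847), or in either fit with a covariate.

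The scavenger receptor gene Msr1 and the clearance receptor gene Mertk were not called in any comparison by their brightest probe sets. Msr1 had means of 9.39 ± 0.23 in 4T1, 9.66 ± 0.52 in 66cl4 and 8.93 ± 0.38 in 67NR (SD, n = 3), and 66cl4 differed from 67NR by 0.73 ± 0.27 (adjusted p = 0.0605). Of the 3 other Msr1 probe sets, 2 passed there, with differences of 1.09 and 0.86 (adjusted p = 0.0263 and 0.00833 when all probe sets were tested), and 1 did not (0.42, adjusted p = 0.258). The probe set at 0.86 was also lower in 4T1 than in 66cl4 (-1.04, adjusted p = 0.00251). The brightest probe set passed in 66cl4 against 67NR without 66cl4 replicate 3 (1.00, adjusted p = 0.0135). Mertk depended on 1 array: its signals were 7.44, 7.37 and 7.03 in 4T1, 8.15, 8.08 and 7.80 in 66cl4, and 8.57, 7.46 and 7.22 in 67NR. Without 67NR replicate 1 it was higher in 66cl4 than in 67NR (0.67, adjusted p = 0.0173) and lower in 4T1 than in 66cl4 (-0.73, adjusted p = 0.00502). With all arrays these differences were 0.26 ± 0.30 (adjusted p = 0.543) and -0.73 ± 0.30 (adjusted p = 0.0786).

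The 4 genes used to identify macrophages in tissue were all lower in 4T1 than in 67NR, against 20.5% of all genes. Of them 2 were also lower in 66cl4 than in 67NR and 2 lower in 4T1 than in 66cl4, against 16% and 23.4%. None of the 4 calls in 4T1 against 67NR passed with the file number in the fit (adjusted p from 0.079 to 0.182). With the hybridization controls none of them passed either (adjusted p from 0.0743 to 0.212). Adgre1, which encodes an adhesion receptor long used to mark mouse macrophages, had signals of 8.39, 8.15 and 8.48 in 4T1, 9.21, 9.63 and 10.33 in 66cl4, and 9.83, 9.55 and 9.80 in 67NR. The 4T1 arrays lay below all others, while 66cl4 spread around 67NR. It was 2.61-fold lower in 4T1 than in 67NR (-1.38 ± 0.24, adjusted p = 0.00145) and about as much lower than in 66cl4 (-1.39 ± 0.24, adjusted p = 0.0014). Aif1, which encodes the calcium-binding protein IBA1, had signals of 9.19, 8.92 and 8.89 in 4T1, 7.95, 8.72 and 9.00 in 66cl4, and 10.46, 10.62 and 10.54 in 67NR. Here both metastatic lines lay below all 67NR arrays. Aif1 was 3.96-fold lower in 66cl4 (-1.99 ± 0.23, adjusted p = 0.000148) and 2.91-fold lower in 4T1 (-1.54 ± 0.23, adjusted p = 0.000541) than in 67NR.

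Ms4a7, a membrane protein gene of macrophages, was lower in 4T1 than in 67NR (-1.68 ± 0.32, adjusted p = 0.00249) and in 66cl4 than in 67NR (-1.01 ± 0.32, adjusted p = 0.0348). The second of these calls did not pass without 66cl4 replicate 1 or 2 (adjusted p = 0.118 and 0.0893) or without 67NR replicate 1, 2 or 3 (0.112, 0.0637 and 0.0694). Laptm5, a lysosomal membrane protein gene of blood cells in general, was lower in 4T1 than in 67NR (-1.06 ± 0.18, adjusted p = 0.00138) and 66cl4 (-0.88 ± 0.18, adjusted p = 0.00392). Its 3 other tested probe sets gave -0.47, -0.66 and -0.0012 against 67NR (adjusted p = 0.0388, 0.0533 and 0.997) and -0.26, -0.36 and 0.26 against 66cl4 (adjusted p = 0.222, 0.272 and 0.345), so the decrease against 66cl4 was called from the brightest probe set alone. Adgre1 and Aif1, whose products are both commonly stained to find macrophages, thus stood differently in 66cl4 against 67NR tumours, with differences of 0.0025 ± 0.24 (adjusted p = 0.995) for Adgre1 and -1.99 ± 0.23 for Aif1, as 66cl4 minus 67NR.

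The 3 effector genes were all lower in 4T1 than in 67NR, against 20.5% of all genes. Of them 1 was lower in 66cl4 than in 67NR and 2 were lower in 4T1 than in 66cl4, against 16% and 23.4%. Lyz2, encoding lysozyme M of macrophages and neutrophils, had signals of 12.64, 12.81 and 11.84 in 4T1, 14.10, 14.27 and 14.20 in 66cl4, and 13.38, 13.63 and 13.73 in 67NR. The lines did not overlap, and the 66cl4 values lay near the upper end of the array's scale, whose highest value was 14.803. Lyz2 was 2.22-fold lower in 4T1 than in 67NR (-1.15 ± 0.22, adjusted p = 0.0025), but the call was lost with the file number (-0.47, adjusted p = 0.276) and with the hybridization controls (-0.71, adjusted p = 0.216). In 66cl4 it differed from 67NR by 0.61 ± 0.22 (adjusted p = 0.0574), and it passed with either covariate (adjusted p = 0.0114 and 0.0378). It also passed without 4T1 replicate 2 or 3 (adjusted p = 0.0395 and 0.00374). There the difference stayed at 0.61, and only the SE, which the 3 lines share, fell to 0.20 and 0.12. Apoe, a lipid carrier of macrophages and other cells, was lower in 4T1 than in 67NR (-1.10 ± 0.20, adjusted p = 0.00193) and than in 66cl4 (-0.78 ± 0.20, adjusted p = 0.0115).

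Cybb encodes the catalytic subunit of the phagocyte NADPH oxidase. Its signals were 9.94, 9.97 and 9.34 in 4T1, 9.43, 9.68 and 9.67 in 66cl4, and 10.57, 10.43 and 9.99 in 67NR. The 67NR values were the highest, the lowest of them just above the highest 4T1 value. Cybb was lower in 66cl4 than in 67NR (-0.74 ± 0.20, adjusted p = 0.0166), with an adjusted p of 0.0604, 0.0644 and 0.0592 without 66cl4 replicate 1, 67NR replicate 1 and 67NR replicate 2. In 4T1 it differed by -0.58 ± 0.20 (adjusted p = 0.043). This call moved past the threshold in 6 of the 9 fits without 1 array, and without 4T1 replicate 3 the difference was -0.37 (adjusted p = 0.123). Of the other oxidase genes, 4 of 5 were tested, with 2 lower in 4T1 than in 67NR, against 20.5% of all genes. In 66cl4 against 67NR 1 was higher, against 20%, and in 4T1 against 66cl4 3 were lower, against 23.4%. Rac2 was lower in 4T1 than in 67NR (-0.84 ± 0.15, adjusted p = 0.00187), as was Ncf4 (-0.50 ± 0.17, adjusted p = 0.044), and Ncf1 was higher in 66cl4 (0.78 ± 0.16, adjusted p = 0.00481). Of 12 lysosomal genes, 5 were lower in 4T1 than in 67NR, against 20.5% of all genes. In 66cl4 against 67NR 1 was higher and 2 lower, against 20% and 16%. In 4T1 against 66cl4 1 was higher and 5 lower, against 17.9% and 23.4%. Ctsh, a cathepsin gene, was lower in 66cl4 than in 67NR (-2.11 ± 0.21, adjusted p = 5.67e-05), Ctsd was higher (0.45 ± 0.10, adjusted p = 0.00619), and Ctsl was lower in 4T1 than in 67NR (-0.56 ± 0.13, adjusted p = 0.00554).

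**Figure D4:**
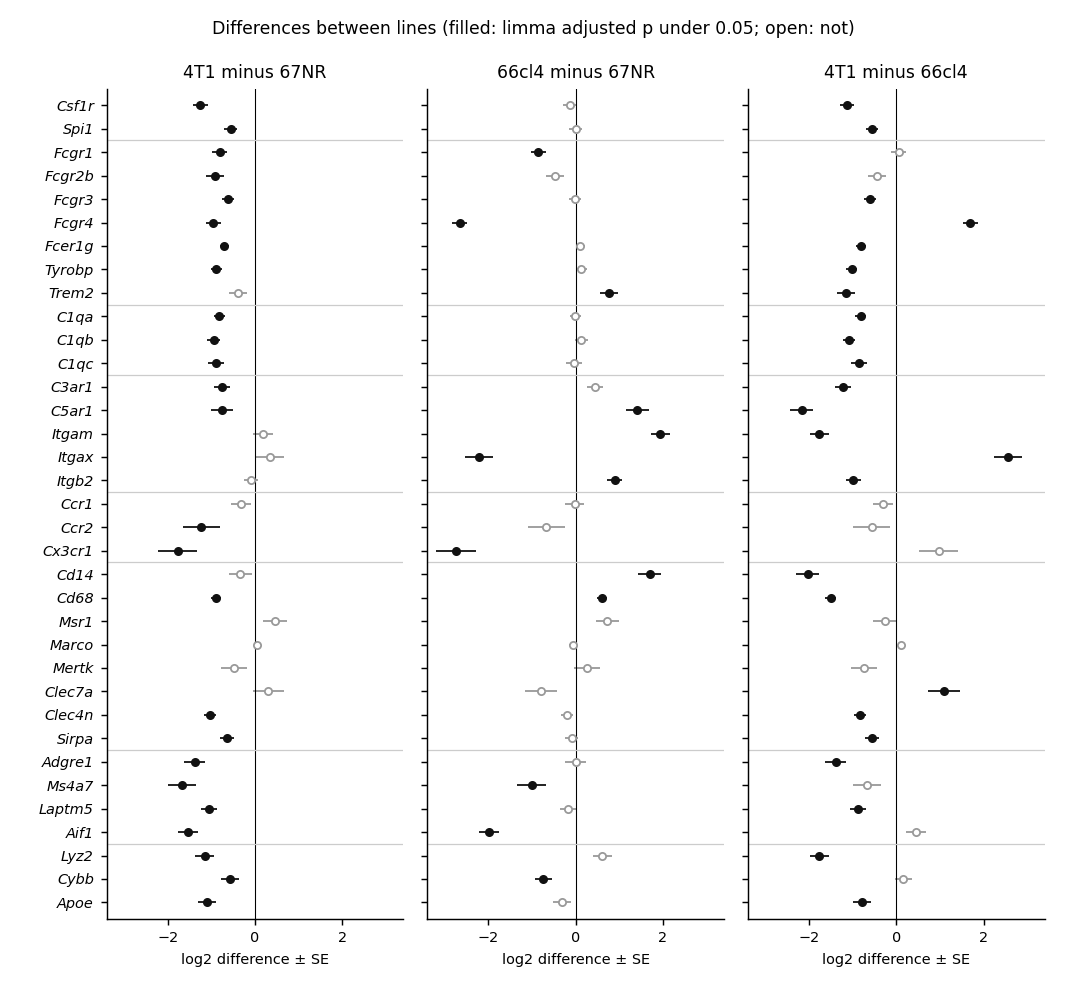
Log2 differences with SE (3 mice per line) of the 35 genes for 4T1 minus 67NR (left), 66cl4 minus 67NR (middle) and 4T1 minus 66cl4 (right), filled where limma's adjusted p was under 0.05. In the left panel 25 genes are filled and all lie below 0, in the middle panel 6 lie above and 7 below, and in the right panel 3 lie above and 21 below.

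Markers of other cells moved with the lines too, and their part in the results was not tested. For the list counts from here on, the shares over all genes were 19.4% higher and 20.5% lower in 4T1 than in 67NR. In 66cl4 against 67NR they were 20% higher and 16% lower, and in 4T1 against 66cl4 17.9% higher and 23.4% lower. For neutrophils, 8 of 12 genes were higher in 4T1 than in 67NR and 8 of 12 were higher than in 66cl4, with 0 called in 66cl4 against 67NR. The summed linear signal of the 12 was 6520 to 8747 in 4T1, 1789 to 3273 in 66cl4 and 2035 to 3483 in 67NR, and Mmp8 was not above background in 67NR. S100a9 was higher in 4T1 than in 67NR (2.56 ± 0.44, adjusted p = 0.0013), as were Ngp (1.64 ± 0.24, adjusted p = 0.000565) and Il1r2 (1.65 ± 0.33, adjusted p = 0.00315). Neutrophils also carry the products of Itgam, Itgb2 and C5ar1, which were highest in 66cl4 tumours. Leukocyte genes in general had 4 of 8 lower in 4T1 than in 67NR, 1 higher and 2 lower in 66cl4 than in 67NR, and 3 lower in 4T1 than in 66cl4. Their sums were 8062 to 9205 in 4T1, 8970 to 11837 in 66cl4 and 10624 to 11370 in 67NR. Ptprc, encoding the common leukocyte antigen CD45, was lower in both metastatic lines than in 67NR (-0.66 ± 0.14 in 4T1, adjusted p = 0.00392, and -0.74 ± 0.14 in 66cl4, adjusted p = 0.00258). Cd48 fell in 4T1 (-1.33 ± 0.18, adjusted p = 0.000323), as did Arhgdib (-0.54 ± 0.13, adjusted p = 0.00964).

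Mast cells share Fcer1g, Fcgr3 and Laptm5 with macrophages. All 8 of their markers were lower in 66cl4 than in 67NR and 7 of 8 in 4T1, with sums of 376 to 551 in 4T1, 468 to 639 in 66cl4 and 16664 to 23270 in 67NR. Of them Ms4a2 was not above background in 4T1 or 66cl4, and Cma1, Tpsb2 and Cpa3 differed by -5.24 ± 0.20, -5.55 ± 0.21 and -5.59 ± 0.27 between 66cl4 and 67NR (adjusted p = 4.49e-07, 4.38e-07 and 1.31e-06). Natural killer cells share Fcer1g, Fcgr3 and Tyrobp. Of 11 T and natural killer cell genes, 4 were lower in 4T1 and 11 in 66cl4 than in 67NR, and 5 were higher and 1 lower in 4T1 than in 66cl4. Their sums were 976 to 1575 in 4T1, 572 to 824 in 66cl4 and 1458 to 2287 in 67NR, and the natural killer receptor Ncr1 was lower in 4T1 (adjusted p = 6.98e-05), where it was above background on 1 of 3 arrays, as was Cd4 (-1.29 ± 0.20, adjusted p = 0.000705). Cd3g was lower in 66cl4 than in 67NR (-2.57 ± 0.37, adjusted p = 0.000579) and was above background on 2 of 3 arrays of 66cl4. In the same comparison Fcer1g differed by 0.11 ± 0.10 (adjusted p = 0.467) and Tyrobp by 0.13 ± 0.13 (adjusted p = 0.461).

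Dendritic cells share Itgax and Clec7a. Of 8 dendritic cell genes tested, 1 was higher and 3 were lower in 4T1 than in 67NR, 5 were lower in 66cl4 than in 67NR, and 2 were higher and 1 lower in 4T1 than in 66cl4. Their sums over 9 genes were 6268 to 8521 in 4T1, 3820 to 4585 in 66cl4 and 5762 to 6779 in 67NR, with 4T1 overlapping 67NR, and Xcr1 was not above background in any line. H2-DMb2, an MHC class II gene not confined to dendritic cells, was lower in 66cl4 than in 67NR (-1.07 ± 0.26, adjusted p = 0.0104). It was higher in 4T1 than in 67NR (2.59 ± 0.26, adjusted p = 4.9e-05), and its mean of 11.16 in 4T1 weighs on the sums. Cd209a was lower in 66cl4 than in 67NR (-0.44 ± 0.11, adjusted p = 0.0127), and Ccr7 differed there by -0.37 ± 0.25 (adjusted p = 0.27). Genes of tissue-resident macrophages had 5 of 8 higher and 1 lower in 66cl4 than in 67NR, 5 lower in 4T1 than in 67NR and 6 lower in 4T1 than in 66cl4, with sums of 1083 to 2263 in 4T1, 12185 to 15782 in 66cl4 and 3624 to 5063 in 67NR. Lyve1 was higher in 66cl4, with signals of 12.31, 12.74 and 12.23, than in 67NR (adjusted p = 2.01e-05), where it was above background on 1 of 3 arrays, so no size is given. Vsig4 was higher by 2.24 ± 0.37 (adjusted p = 0.00112). Timd4 was not above background in 4T1 tumours. Inflammatory monocyte genes had 1 of 5 higher and 1 lower in 4T1 than in 67NR, 1 higher and 2 lower in 66cl4 than in 67NR, and 2 higher and 1 lower in 4T1 than in 66cl4. Of these F13a1 was higher (2.90 ± 0.52, adjusted p = 0.00195) and Plac8 lower (-1.65 ± 0.35, adjusted p = 0.00499) in 66cl4 than in 67NR, and Chil3 was not above background in 67NR.

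**Figure D5:**
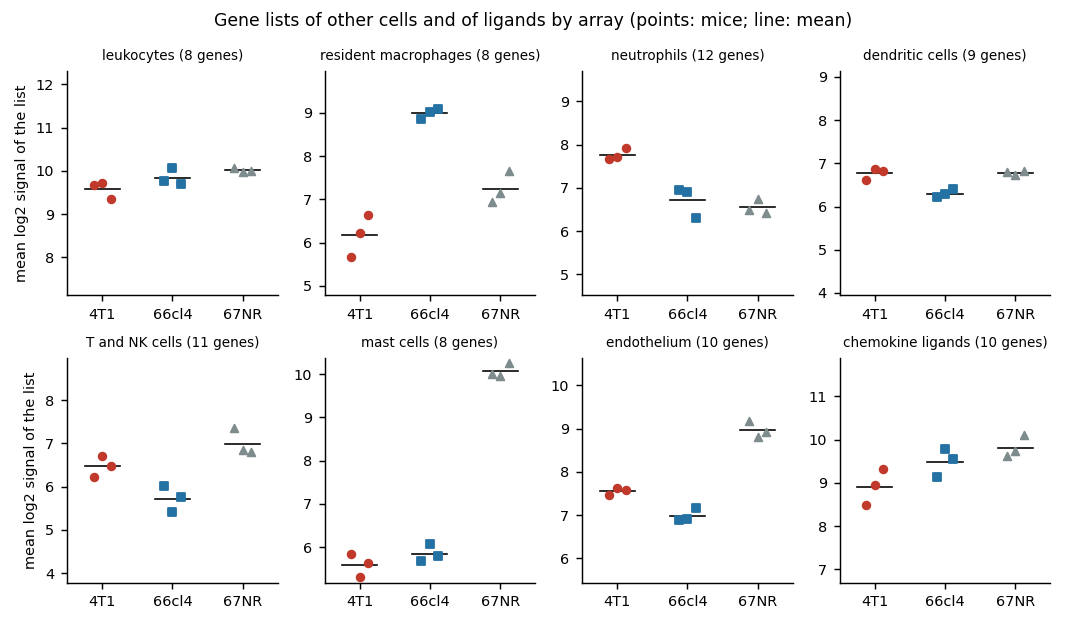
Mean log2 signal (y axis) of the genes of 8 lists on each array, 1 point per mouse and a line at the mean of each tumour line, with lines on the x axis in the order 4T1, 66cl4 and 67NR. Neutrophil genes are highest in 4T1, resident macrophage genes in 66cl4, and mast cell and endothelial genes in 67NR.

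Markers of cells that carry few of the 35 genes also differed, and which cells made their RNA was not tested. Of 10 endothelial genes 9 were lower in 4T1 and 10 in 66cl4 than in 67NR, and 5 were higher in 4T1 than in 66cl4, with sums of 2498 to 2739 in 4T1, 1487 to 1796 in 66cl4 and 5514 to 8092 in 67NR, including Cdh5, Emcn and Tek. Of 8 fibroblast genes 4 were higher and 3 lower in 4T1 than in 67NR, 4 higher and 2 lower in 66cl4 than in 67NR, and 3 higher and 3 lower in 4T1 than in 66cl4, with Col1a1 higher and Pdpn lower in both metastatic lines and Pdgfra lower in 4T1. The 3 B cell genes tested, Cd79a, Cd79b and Pax5, were not called in any comparison.

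Mice of a line did not vary evenly. Within 66cl4, replicate 1 had the lowest signal of the 3 mice for 26 of the 35 genes and replicate 2 the highest for 21, with median deviations from the line's mean of -0.20 and 0.16. In 4T1, no mouse was lowest for more than 15 genes. Leaving out 66cl4 replicate 1 moved the members called lower in 4T1 than in 66cl4 to 24, against 21 with all arrays. Of the 15 genes with more than 1 tested probe set, 0 had probe sets called in opposite directions in any comparison. In 4T1 against 67NR the probe sets of 6 of them differed in whether they passed, those of C3ar1, C5ar1, Ccr2, Cybb, Fcgr1 and Laptm5. In 66cl4 against 67NR those of Cybb, Fcgr1, Msr1 and Trem2 did, and in 4T1 against 66cl4 those of Laptm5, Msr1 and Trem2.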

How the data were processed

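RNA of 9 microdissected tumours was measured on single-colour Affymetrix arrays. The log2 values were used as deposited by the authors, and their background correction and normalization are not given in the sources used here. Of 45101 probe sets, 34958 were annotated to 1 gene, 932 to several and 9211 to none; 34754 were matched to RefSeq. The brightest probe set stood for each of 18193 genes, and 13409 genes above the array's 40th percentile (4.82 to 4.93) on at least 3 arrays were tested. Group means over all 9 arrays were fitted with limma 3.58.1 (lmFit and eBayes) in R 4.3.3, with 6 residual and 3.63 prior degrees of freedom, and p-values were Benjamini-Hochberg adjusted over all genes tested, with a threshold of 0.05. An exact permutation test of 3 against 3 cannot go below 0.1. The number of arrays limits the precision.

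The members and lists were chosen with earlier results of these data known. All 35 members are named, and of each other list the 3 genes with the smallest adjusted F-test p, plus Ptprc, Csf1, Ccl2, Cx3cl1, Irf8 and Ly6c2, which was not measured. The labels give 1 mouse per array. The p-values set a difference against the spread between mice, pooled over the 3 lines and moderated over all genes tested. Leaving out an array of the line not compared therefore changed the SE but not the difference. With 1 cell line per tumour type, the p-values do not cover variation between cell lines of a type. The labels do not say that replicate numbers pair mice. Deviations from line means correlated with r from -0.115 to 0.159 between same-numbered arrays of different lines. Between differently numbered arrays r was -0.182 to 0.161. The fit was tested on simulated data with independent noise and no array-level effect, so that test does not bear on the array covariates. Alternatives were quantile normalization, the mean of probe sets, other filters, trend and robust eBayes, array covariates, a replicate block, only the lines compared, each array left out and, chosen after seeing the data, every probe set tested.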

Additional observations from a re-analysis of the deposited data

How the results depend on the processing

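Of 1989 member values under the alternatives, 49 changed direction, and 0 of these had been called. Leaving out 1 array gave 22 to 25 members lower in 4T1 than in 67NR, 5 to 8 higher and 5 to 7 lower in 66cl4 than in 67NR, and 2 to 3 higher and 20 to 24 lower in 4T1 than in 66cl4. With the replicate block, 25 members were lower in 4T1 and 8 in 66cl4 than in 67NR. With it, 22 were lower in 4T1 than in 66cl4. The labels do not say that the numbers pair mice. The largest moves came with the array covariates, and the cause was not tested: members lower in 4T1 than in 67NR were 5 with the file number and 6 with the hybridization controls, and all genes called were 2661 and 2151, against 5347. Members lower in 66cl4 than in 67NR were 4 with the file number.

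Values that changed direction, none of them called, were these. For 4T1 minus 67NR, with the hybridization controls Trem2 was 0.11, Itgax -0.27 and Ccr1 0.0404, and with the file number Ccr1 was 0.0921. For 66cl4 minus 67NR, quantile normalization gave Spi1 -0.028, Fcgr3 0.0084, C1qa 0.0186, C1qc 0.0225 and Adgre1 -0.0257. The file number gave Fcgr3 0.19, C1qa 0.11, C1qc 0.32, Ccr1 0.24, Ccr2 0.0701, Sirpa 0.13 and Apoe 0.0619. The hybridization controls gave Fcgr3 0.0761, C1qc 0.0486, Ccr1 0.13 and Mertk -0.11, and the mean of probe sets gave C1qb -0.0177 and Ccr1 0.0101. For 4T1 minus 66cl4, the mean of probe sets gave Fcgr1 -0.0154 and the hybridization controls Ccr2 0.074. Without 1 array, 4T1 minus 67NR ranged from -0.0274 to 0.32 for Itgam and from -0.17 to 0.0307 for Itgb2. The ranges of 66cl4 minus 67NR were -0.25 to 0.0309 for Csf1r, -0.13 to 0.17 for Spi1, -0.11 to 0.15 for Fcgr3, -0.10 to 0.0821 for C1qa, -0.18 to 0.11 for C1qc, -0.29 to 0.12 for Ccr1, -0.0067 to 0.67 for Mertk, -0.22 to 0.0782 for Sirpa and -0.30 to 0.26 for Adgre1. For Fcgr1 4T1 minus 66cl4 ranged from -0.14 to 0.21.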
